A study of Mus musculus with 6 samples.

Results

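The genes of MHC class II presentation were followed in left ventricular myocardium of mice with and without experimental heart failure with preserved ejection fraction (HFpEF). The 7 genes are H2-Aa, H2-Ab1 and H2-Eb1, which encode chains of the peptide-presenting molecules, Cd74, H2-DMa and H2-DMb1, which encode the proteins that guard and load the peptide groove, and Ciita, which encodes the transcriptional coactivator of the whole group. They were taken by symbol from the 54532 gene identifiers of the expression table, and all 7 passed the expression filter that left 14227 genes for testing.

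RNA was sequenced from the myocardium of 6 mice, with 1 library per mouse and 3 libraries per group. All mice were male C57BL/6, were 6 to 8 weeks old at the start and were kept on their regimen for 12 weeks. HFpEF mice received a high-fat diet (HFD) with 60% of its energy from fat, together with N-nitro-L-arginine methyl ester (L-NAME), which blocks nitric oxide synthase, at 0.5 g/L in the drinking water. Chow mice received standard feed and plain water, and no mouse of either group carried a genetic change named in the labels.

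MHC class II molecules are heterodimers of an alpha and a beta chain that show peptides from ingested material to CD4+ T cells. The chains assemble in the endoplasmic reticulum around the invariant chain (CD74), which blocks the groove and directs the complex to endosomes. There cathepsins cut CD74 down to a short fragment, and the H2-DM heterodimer exchanges that fragment for a peptide. CIITA does not bind DNA itself. It is recruited to the promoters by RFX, CREB and NF-Y, which sit on conserved X and Y boxes, and its own gene is active in dendritic cells, B cells and activated macrophages and can be induced by interferon gamma in many other cells. In the healthy heart the main carriers of class II are resident macrophages and dendritic cells.

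The X and Y boxes are the known common feature of class II promoters, so the stretch from 110 to 11 bases before the transcription start is shown for those genes where RefSeq windows (GRCm38.p6) hold it and the letters make the spacing visible. Windows ran from 250 bases before to 50 bases after the start and were matched for 4 of the 7 genes. Capitals mark matches of the X box core GCAAC and the Y box core ATTGG on the strand shown. Both motifs were searched on both strands, and no match overlapped one of the other motif in these stretches. An antisense Y core 35 bases before the start of H2-Eb1 is left in lower case. The stretches lie at chr17:34287834-34287933 on the minus strand for H2-Aa, and on the plus strand at chr17:34305757-34305856 for H2-Eb1, at chr17:34153081-34153180 for H2-DMb1 and at chr17:34238795-34238894 for H2-Ob. H2-Ob, the beta chain of the H2-DM inhibitor H2-O, is included for comparison.
H2-Aa: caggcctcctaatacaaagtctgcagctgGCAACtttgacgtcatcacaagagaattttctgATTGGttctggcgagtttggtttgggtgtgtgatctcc
H2-Eb1: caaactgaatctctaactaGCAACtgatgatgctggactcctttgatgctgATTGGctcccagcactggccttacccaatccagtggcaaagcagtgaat
H2-DMb1: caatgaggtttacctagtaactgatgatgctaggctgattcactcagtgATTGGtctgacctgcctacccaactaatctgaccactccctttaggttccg
H2-Ob: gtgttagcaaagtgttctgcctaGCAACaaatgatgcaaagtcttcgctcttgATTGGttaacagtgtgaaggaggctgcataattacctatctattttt

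In H2-Aa the X core began 81 bases and the Y core 48 bases before the start, with 28 bases between them. In H2-Eb1 the same order was found at 91 and 59 bases, with 27 bases between, and in H2-Ob at 87 and 57 bases, with 25 bases between. The H2-DMb1 window held the Y core, 61 bases before the start, and no X core with exactly these letters. H2-DMa has 2 RefSeq starts, with an antisense X core 7 bases before the first and a Y core 198 bases before the second. Each core alone is common, as 35.2% of the 32851 mouse promoter windows hold the X core and 37.4% hold the Y core, whereas an X core followed by a Y core on the same strand with 10 to 40 bases between was present in 1.43% of windows. These matches describe letters in a window and do not show that a factor was bound.

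**Figure D1:**
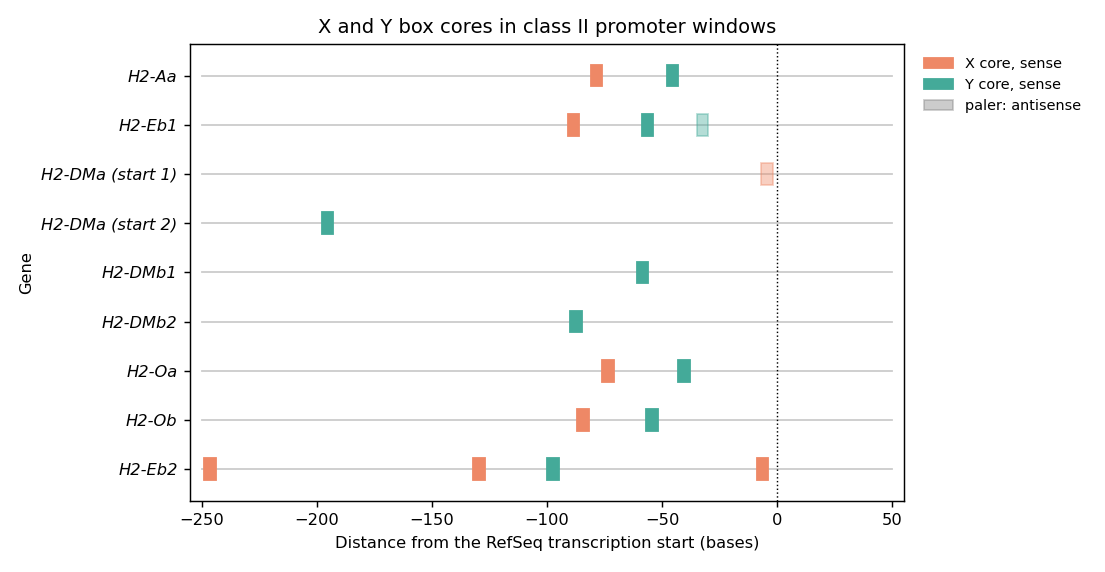
Positions of the X core (orange) and Y core (green) in RefSeq promoter windows of class II genes, as distance in bases from the transcription start. Sense matches are solid and antisense matches pale. H2-Aa, H2-Eb1, H2-Oa and H2-Ob share an X core followed at short distance by a Y core within 100 bases of the start. H2-Eb2 also holds such a pair, farther out, with the X core 132 and the Y core 100 bases before the start. H2-DMa and H2-DMb1 do not hold that pair.

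The level of each gene is given as FPKM, which is read number per exon length after scaling to library size. From the smallest steps between values, whole read numbers could be recovered, with totals of 12883543 to 15344033 reads per Chow library and 13253611 to 15771445 per HFpEF library. The tissue expressed the ventricular cardiomyocyte genes at the top of the table, with Actc1, the cardiac alpha actin, at 4458 to 5337 FPKM in Chow and 2445 to 3820 in HFpEF. HFpEF replicate 3 stood apart from the other libraries. Mitochondrially encoded genes took 7.31% of its reads against 20.4% to 26.4% in the other 5, Col1a1, a chain of type I collagen, reached 2252 FPKM against 24.9 to 87.2, and it lay at 75.5 on the first principal component, where the other HFpEF libraries lay at 11.6 and 12.7 and the Chow libraries between −35.8 and −31.7. HFpEF replicate 2 carried the most B cell RNA, with Ighm, the IgM heavy chain, at 83.0 FPKM against 5.09 to 13.2 elsewhere. Results for the class II genes are therefore also given without these libraries.

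All 7 class II genes had a higher mean FPKM in HFpEF than in Chow, by 1.47- to 2.04-fold, but the 3 HFpEF mice did not behave alike. Replicates 2 and 3 lay above every Chow library for 7 of the 7 genes, whereas HFpEF replicate 1 lay within the Chow range for 5 of them. None of the 7 passed an adjusted p of 0.05 in limma, a linear model fitted to all 14227 genes. Of all genes, 0.0984% did (14 genes). In the same fit none of the 7 met the stricter threshold in the study's methods for differentially expressed genes (DEGs). That threshold adds an absolute log2 fold change of 2 or more, and 0.0562% of genes met it in limma. The study itself tested with DESeq2, so this share is not its own DEG count. No rise of the class II genes is called in limma here. At an unadjusted p under 0.05, 4 of the 7 were higher in HFpEF, against a background of 10.2% of genes. The median log2 fold change of the 7 genes was 0.77, beside −0.012 over all genes tested. In whole tissue, a change in the number of class II-bearing cells and a change in RNA per cell cannot be told apart.

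**Figure D2:**
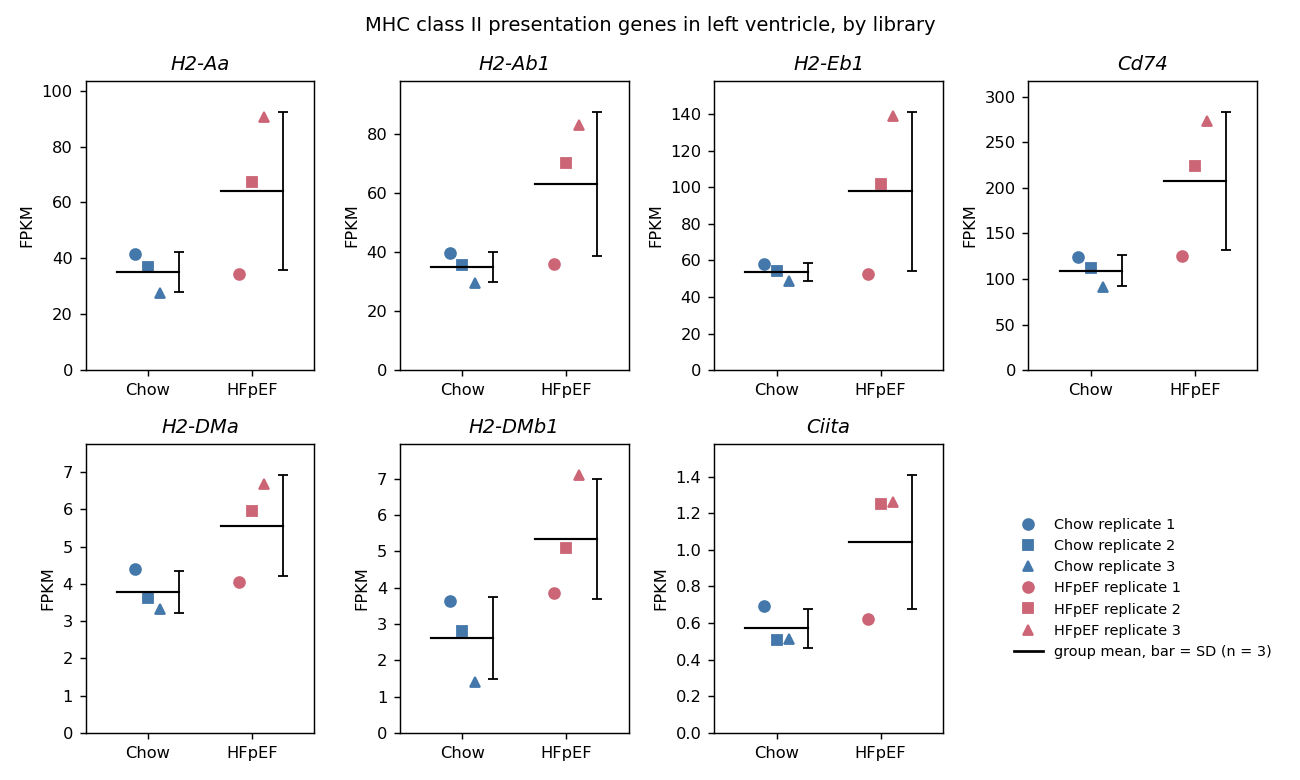
Level (FPKM) of each class II presentation gene in the 3 Chow and 3 HFpEF libraries. Points are single mice, horizontal lines are group means and bars are the SD (n = 3). For every gene HFpEF replicates 2 and 3 lie above all Chow points, and HFpEF replicate 1 lies among or next to them.

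The chains of the presenting molecules were well covered. H2-Aa (ENSMUSG00000036594, chromosome 17, 34282744 to 34287823, minus strand, GRCm38) encodes the alpha chain of I-A, the only peptide-presenting class II molecule on the cell surface in this strain. It was at 41.5, 36.9 and 27.5 FPKM in Chow replicates 1 to 3 and at 34.5, 67.4 and 90.6 FPKM in HFpEF replicates 1 to 3, which corresponds to 623 to 1107 reads in Chow and 896 to 3280 in HFpEF. HFpEF replicate 1 thus lay between the Chow mice, and the groups overlapped. The Chow mean was 35.3 ± 7.13 FPKM (SD, n = 3) and the HFpEF mean 64.2 ± 28.2 FPKM (SD, n = 3). The log2 fold change on log2(FPKM + 0.1) was 0.77 with an SE of 0.36, a 95% interval of −0.095 to 1.64 and an adjusted p of 0.252 in limma.

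H2-Ab1 (ENSMUSG00000073421, chromosome 17, 34257689 to 34269419, plus strand) encodes the beta chain that pairs with H2-Aa. Its levels were 39.8, 35.5 and 29.6 FPKM in Chow and 36.0, 70.2 and 83.1 FPKM in HFpEF. The pattern was that of its partner, with replicate 1 of HFpEF inside the Chow range. Mean levels were 34.9 ± 5.13 FPKM (SD, n = 3) and 63.1 ± 24.4 FPKM (SD, n = 3), a log2 fold change of 0.77 with an SE of 0.32 and an adjusted p of 0.210 in limma.

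H2-Eb1 (ENSMUSG00000060586, chromosome 17, 34305867 to 34316674, plus strand) encodes the beta chain of I-E. C57BL/6 mice make no I-E on the cell surface because the alpha chain gene is defective in their haplotype. The transcript was nonetheless the most abundant of the chain genes, at 58.1, 54.1 and 48.5 FPKM in Chow and 52.4, 102 and 139 FPKM in HFpEF. Again only HFpEF replicate 1 overlapped the Chow libraries. Its means were 53.6 ± 4.79 FPKM (SD, n = 3) and 97.7 ± 43.4 FPKM (SD, n = 3), with a log2 fold change of 0.76, an SE of 0.34 and an adjusted p of 0.240 in limma. The alpha chain pseudogene H2-Ea-ps had 0 reads in all 6 libraries, where a count of 0 allows up to 3 reads per library. A second gene model, Gm20513, overlaps H2-Eb1 on the opposite strand, and whether reads were counted by strand is not given in the sources used here.

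Among the helper proteins, Cd74 (ENSMUSG00000024610, chromosome 18), the invariant chain, was the most abundant of all 7 genes and ranked 215 of the 14227 genes by mean level. Chow libraries had 124, 112 and 91.0 FPKM and HFpEF libraries 125, 224 and 273 FPKM. The lowest HFpEF library exceeded the highest Chow library by little more than 1 FPKM, so the groups did not overlap but nearly touched. Means were 109 ± 16.8 FPKM (SD, n = 3) and 208 ± 75.5 FPKM (SD, n = 3). The log2 fold change of 0.86 had an SE of 0.30, a 95% interval of 0.13 to 1.59 and an adjusted p of 0.173 in limma.

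H2-DMa (ENSMUSG00000037649, chromosome 17, 34119541 to 34139101, plus strand), the alpha chain of the peptide exchanger, was expressed far below the presenting chains. It was at 4.41, 3.64 and 3.33 FPKM in Chow and at 4.05, 5.97 and 6.69 FPKM in HFpEF, from 66 to 212 reads per library. The groups overlapped through HFpEF replicate 1. This was the smallest difference of the 7, with means of 3.79 ± 0.557 FPKM (SD, n = 3) and 5.57 ± 1.36 FPKM (SD, n = 3), a log2 fold change of 0.52, an SE of 0.21 and an adjusted p of 0.208 in limma. Brd2 and Gm20493 overlap it on the other strand.

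H2-DMb1 (ENSMUSG00000079547, chromosome 17, 34153072 to 34160230, plus strand) encodes the beta chain of H2-DM and showed the largest difference of the 7. Chow libraries had 3.64, 2.81 and 1.39 FPKM and HFpEF libraries 3.84, 5.09 and 7.11 FPKM, without overlap between the groups. Chow replicate 3, with 25 reads, was well under the other Chow libraries, which had 77 and 49 reads. The log2 fold change was 1.06 with an SE of 0.38, a 95% interval of 0.15 to 1.97 and an adjusted p of 0.177 in limma, and without Chow replicate 3 it was 0.68. The neighbouring paralog H2-DMb2 is nearly identical to it, so how shared reads were divided between them is uncertain. H2-DMb2 had 18, 15 and 7 reads in Chow and 3, 46 and 47 in HFpEF (log2 fold change 0.30, adjusted p = 0.844, limma).

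Ciita (ENSMUSG00000022504, chromosome 16, 10480059 to 10528418, plus strand), the coactivator, was the least abundant gene of the group and ranked 12895 of 14227. It was at 0.692, 0.509 and 0.512 FPKM in Chow and at 0.621, 1.25 and 1.26 FPKM in HFpEF. Because its exons are long, these low levels still rest on 57 to 94 reads in Chow and 82 to 232 in HFpEF. HFpEF replicates 2 and 3 were almost equal and above Chow, while HFpEF replicate 1 was within the Chow range. The log2 fold change was 0.72 with an SE of 0.34 and an adjusted p of 0.251 in limma. Dexi overlaps Ciita on the other strand.

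The exact two-sided permutation test of single genes, whose smallest possible p with 3 mice against 3 is 0.1, gave 0.1 for Cd74 and H2-DMb1 and 0.2 or 0.3 for the other 5. These were the 2 genes of the 7 without overlap between groups, where 15.6% of all genes lay without overlap on the higher side in HFpEF. The rank order inside the HFpEF group was the same for 7 of 7 genes, with replicate 1 lowest and replicate 3 highest, an order held by 20.1% of all genes. All 7 also had HFpEF replicates 2 and 3 above every Chow library, as did 22.1% of genes tested. In Chow, replicate 1 was highest for 7 of 7 and replicate 3 lowest for 6 of 7, Ciita being the exception. The members share libraries and cells of origin, so their common order is 1 observation on 6 mice rather than 7.

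The size of the difference depended on which mouse was left out. Without HFpEF replicate 1 the log2 fold changes ran from 0.73 to 1.27 with a median of 1.15, and 7 of 7 genes had an unadjusted p under 0.05 (background 11% higher). Their adjusted p was then 0.108 to 0.157 in limma, and 0.0211% of all genes passed the adjusted threshold. Without HFpEF replicate 3, the library that stood apart, they ran from 0.38 to 0.83 with a median of 0.53, and 0 of 7 had an unadjusted p under 0.05 (background 10.2%). The class II genes stayed above the adjusted threshold in that fit, at 0.248 to 0.456 in limma, although 8.35% of all genes passed it. Without HFpEF replicate 2, the library with the most Ighm, the median was 0.67 and again 0 of 7 had an unadjusted p under 0.05 (background 10.4%), with 0.373% of all genes past the adjusted threshold.

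With a Chow mouse left out, the medians were 0.87, 0.79 and 0.66 without replicates 1, 2 and 3. The count at an unadjusted p under 0.05 was 3 of 7 without Chow replicate 1 (background 6.7%), 1 of 7 without Chow replicate 2 (background 6.3%) and 0 of 7 without Chow replicate 3 (background 6.69%). In each of these fits 0.0141% of all genes and none of the class II genes passed the adjusted threshold in limma. The direction was higher in HFpEF for each of the 7 genes in all 6 fits that left out a library.

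**Figure D3:**
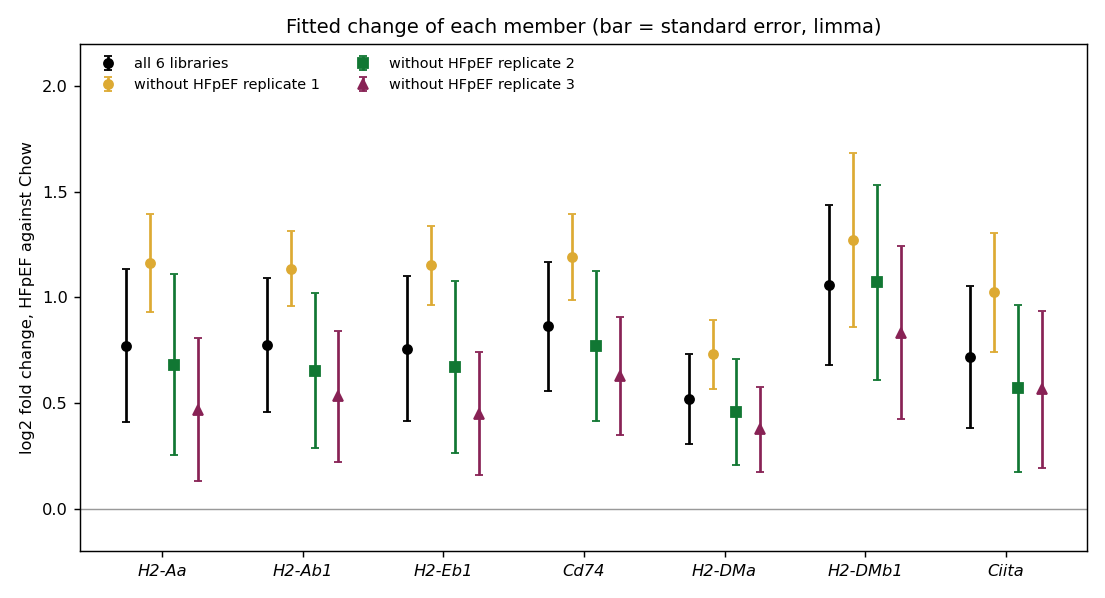
Fitted log2 fold change (HFpEF against Chow) of each class II presentation gene with its standard error from limma, with all 6 libraries and without each HFpEF library in turn. Values without HFpEF replicate 1 lie highest (median 1.15) and those without HFpEF replicate 3 lowest (median 0.53), all above 0.

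Per kilobase of exon, the order of the levels was Cd74, H2-Eb1, then H2-Aa and H2-Ab1, then H2-DMa and H2-DMb1, then Ciita. H2-Aa and H2-Ab1 could not be ordered, since their FPKM ratio within a library was 0.930 to 1.09 over the 6 libraries. H2-DMb1 over H2-DMa varied more, from 0.419 to 1.06, and the order of these genes was not the same in every library. The exon lengths at which the reads come out whole are shorter than the GENCODE M21 union for 6 of the 7 genes, and the order of levels rests on the lengths the authors used.

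Ratios between partners showed how closely the genes kept together. H2-Aa over H2-Ab1, the 2 chains of 1 molecule, had a mean of 1.00 in both groups, with an SD of 0.0639 among the 3 Chow mice and 0.0752 among the 3 HFpEF mice (exact permutation p = 1). H2-Eb1 over H2-Ab1 was 1.54 ± 0.0925 and 1.53 ± 0.125 (exact permutation p = 0.8, n = 3 per group). Ciita over H2-Ab1 was 0.0164 and 0.0167 (exact permutation p = 0.7), although the 2 genes differ widely in level. These ratios differed between the groups by less than the spread between mice.

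Cd74 over H2-Ab1 was 3.08 to 3.17 in Chow and 3.19 to 3.48 in HFpEF, and H2-DMb1 over H2-DMa was 0.419 to 0.826 and 0.852 to 1.06. The groups did not overlap in either ratio, with an exact permutation p of 0.1, the smallest that 3 against 3 can give, and 0.6 after Benjamini-Hochberg adjustment over the 12 ratios computed. HFpEF replicate 1 had the highest ratio of Cd74 to H2-Ab1 although its Cd74 level was the lowest of that group. Across the 6 libraries the 21 pairwise correlations between the 7 genes were 0.826 to 0.995 with a median of 0.978, a description over mice that share group and library.

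**Figure D4:**
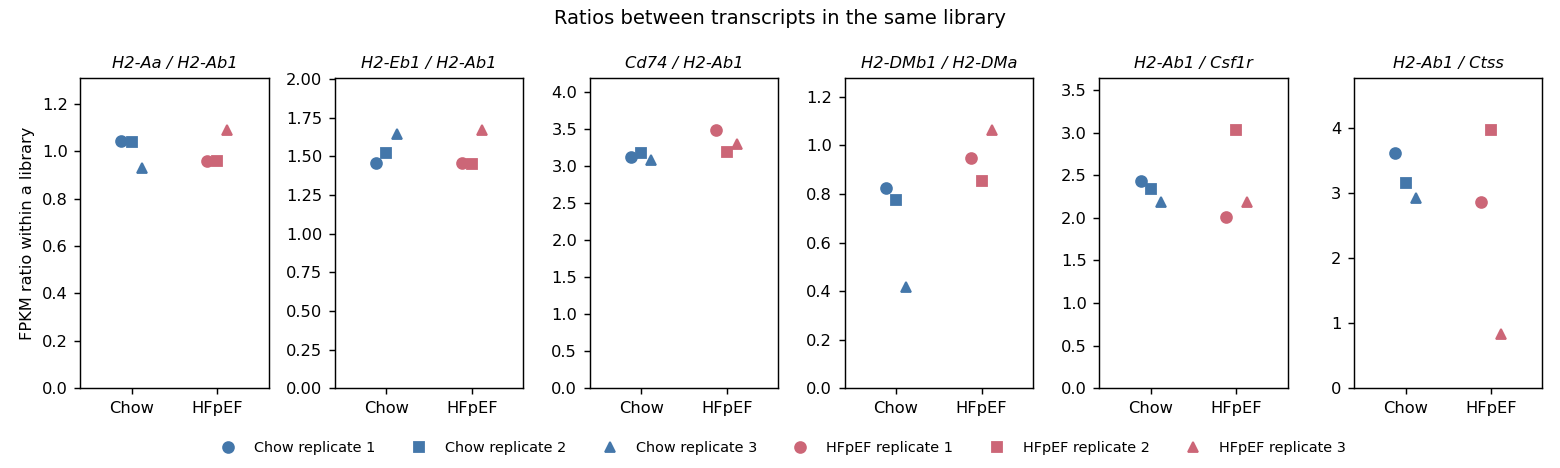
FPKM ratios within each library for pairs of class II genes and for H2-Ab1 against the macrophage gene Csf1r and the cathepsin gene Ctss. Points are single mice. H2-Aa over H2-Ab1 stays between 0.930 and 1.09, and H2-Ab1 over Ctss falls to 0.828 in HFpEF replicate 3.

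Other class II genes were few and low. H2-Ob had 13 to 32 reads in Chow and 17 to 48 in HFpEF (log2 fold change 0.02, adjusted p = 0.979, limma), and was tested together with H2-DMb2. H2-Eb2 had 0 reads in all Chow libraries and 4, 20 and 14 reads in HFpEF replicates 1 to 3, too few to enter the test. H2-Oa, the partner of H2-Ob, reached at most 0.588 FPKM and was not tested. Thus 0 of the 2 tested genes of this kind had an unadjusted p under 0.05 in either direction. Without HFpEF replicate 1, 1 of the 2 was higher at that threshold, and the median log2 fold change was 0.75 in place of 0.16.

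None of the genes for proteins that assemble on the class II promoters passed the test. Of Rfx5, Rfxap, Rfxank, Creb1, Nfya, Nfyb and Nfyc, 0 of 7 had an unadjusted p under 0.05, and their median log2 fold change was 0.058 with a range of −0.25 to 0.29. Nfyc, a subunit of NF-Y and the most abundant, was at 16.5 to 18.9 FPKM in Chow and at 18.9, 18.5 and 9.63 FPKM in HFpEF (log2 fold change −0.25, adjusted p = 0.582, limma). Rfxap, a subunit of RFX, was at 5.24 to 6.23 FPKM in Chow and 4.34 to 6.53 in HFpEF. HFpEF replicate 3 was the lowest HFpEF library for 3 of the 7 factors, Nfyc and Rfxap among them. For another 3 it was the highest and replicate 1 the lowest, as for Ciita, namely Rfx5 at 1.56, 1.66 and 1.92 FPKM, Creb1 at 2.39, 2.86 and 2.95 FPKM and Nfya at 2.79, 3.97 and 4.56 FPKM, which were named after their values were seen. The median log2 ratio of the list to the Chow mean was 0.079, 0.16 and 0.24 in HFpEF replicates 1 to 3.

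Interferon gamma is the classical inducer of Ciita outside professional antigen-presenting cells. Ifng itself had 1 read, in HFpEF replicate 3, and 0 reads in the other 5 libraries. Of the 7 genes tested, 0 were higher and 2 lower at an unadjusted p under 0.05, beside 10.2% and 13.1% of all genes, and none passed the adjusted threshold. Without HFpEF replicate 3, 1 of the 7 passed it, Ifngr2, on the lower side. Ifngr2, a receptor chain, was at 54.0 to 62.0 FPKM in Chow and 28.0 to 41.2 FPKM in HFpEF, without overlap (log2 fold change −0.70, SE 0.17, adjusted p = 0.119, limma). Jak1, the kinase on the receptor, was at 28.0 to 35.6 and 23.4 to 26.6 FPKM (log2 fold change −0.31, adjusted p = 0.208, limma).

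Irf1, the factor that carries the signal to Ciita, was at 6.43 to 7.72 FPKM in Chow and 7.17 to 8.01 FPKM in HFpEF (log2 fold change 0.09, adjusted p = 0.617, limma). Ifngr1, Jak2 and Socs1 had log2 fold changes of 0.12, 0.20 and 0.60, each with an adjusted p of 0.446 or above in limma. Of 9 interferon gamma target genes tested, 0 were higher and 1 was lower at an unadjusted p under 0.05. That gene was Cxcl9, a T cell chemokine named after its values were seen, with a log2 fold change of −0.77 and an adjusted p of 0.166 in limma. The most abundant target, the GTPase Iigp1, was at 14.2 to 17.9 FPKM in Chow and 13.3 to 18.8 FPKM in HFpEF. Gbp2, a guanylate-binding protein and the second in abundance, was at 8.71 to 9.63 FPKM in Chow and at 8.75, 15.3 and 15.2 FPKM in HFpEF (log2 fold change 0.48, adjusted p = 0.253, limma). Like 5 of the 7 class II genes it was within the Chow range in HFpEF replicate 1 and above it in replicates 2 and 3. In all, 5 of the 9 targets had both of those libraries above every Chow library, and without HFpEF replicate 1 there were 2 higher at an unadjusted p under 0.05.

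Among the proteases and the reductase that prepare peptides, 6 of 7 genes tested had the same order of HFpEF libraries as the class II genes, beside 20.1% of all genes. At an unadjusted p under 0.05 1 of 7 was higher, namely Ifi30, the lysosomal thiol reductase, named after its values were seen. It was at 7.42 to 7.87 FPKM in Chow and at 8.61, 14.4 and 26.4 FPKM in HFpEF (log2 fold change 0.96, adjusted p = 0.196, limma). That count was 2 without HFpEF replicate 1 or 3, and 0 without HFpEF replicate 2 or any 1 Chow library. Ctsd, cathepsin D and the most abundant, was at 218 to 234 FPKM in Chow and 178 to 199 FPKM in HFpEF (log2 fold change −0.25, adjusted p = 0.274, limma). It had that order of HFpEF libraries although each of them lay below every Chow library. Ctsb was at 80.1 to 82.2 FPKM in Chow and at 83.7, 90.2 and 133 FPKM in HFpEF, and Lgmn, the legumain gene, at 35.1 to 39.4 FPKM and at 35.1, 42.2 and 81.3 FPKM. For Ctsb and Lgmn HFpEF replicate 3 was far above the other libraries.

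Ctss, cathepsin S, which makes the last cuts in CD74, was also chosen after its values were seen. It was at 11.0, 11.2 and 10.1 FPKM in Chow and at 12.6, 17.7 and 100 FPKM in HFpEF (log2 fold change 1.38, SE 0.73, adjusted p = 0.296, limma). In HFpEF replicate 2, H2-Ab1 was thus at 3.97 times Ctss, above the 2.92 to 3.61 of Chow, and in HFpEF replicate 3 it was at 0.828 times Ctss. The class II genes were high in both of those mice, whereas Ctss was high mainly in replicate 3.

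Genes of surface turnover and costimulation were at low levels. Of 5 tested, 1 was higher at an unadjusted p under 0.05, Cd83, which protects class II from ubiquitination, at 1.91 to 2.42 FPKM in Chow and 2.72 to 4.01 FPKM in HFpEF (log2 fold change 0.62, SE 0.18, adjusted p = 0.137, limma). March8, a ubiquitin ligase that removes class II from the surface, was at 7.61 to 8.21 and 6.72 to 7.99 FPKM. Cd86, a costimulatory ligand, was at 1.15 to 1.28 FPKM in Chow and at 1.54, 1.11 and 2.32 FPKM in HFpEF.

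The medians of the MHC class I genes had the same order over the HFpEF libraries. Their median log2 ratio to the Chow mean was −0.020, 0.53 and 0.84 in HFpEF replicates 1 to 3, beside 0.099, 1.02 and 1.34 for the class II genes. Of 10 genes tested, 3 were higher at an unadjusted p under 0.05 and 0 at an adjusted p under 0.05, and the median log2 fold change was 0.46. The first count was 6 without HFpEF replicate 1, 0 without HFpEF replicate 2, 2 without HFpEF replicate 3 and 1, 2 and 1 without Chow replicates 1, 2 and 3. B2m, the class I light chain, was at 218 to 252 FPKM in Chow and at 248, 349 and 426 FPKM in HFpEF (log2 fold change 0.52, adjusted p = 0.216, limma). H2-K1 and H2-D1, which encode heavy chains and belong to a family with near-identical copies, had log2 fold changes of 0.52 and 0.58 with adjusted p of 0.286 and 0.283 in limma. The ratio of H2-Ab1 to H2-K1 was 0.391 ± 0.0882 in Chow and 0.459 ± 0.0328 in HFpEF (SD, n = 3 each, exact permutation p = 0.4).

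**Figure D5:**
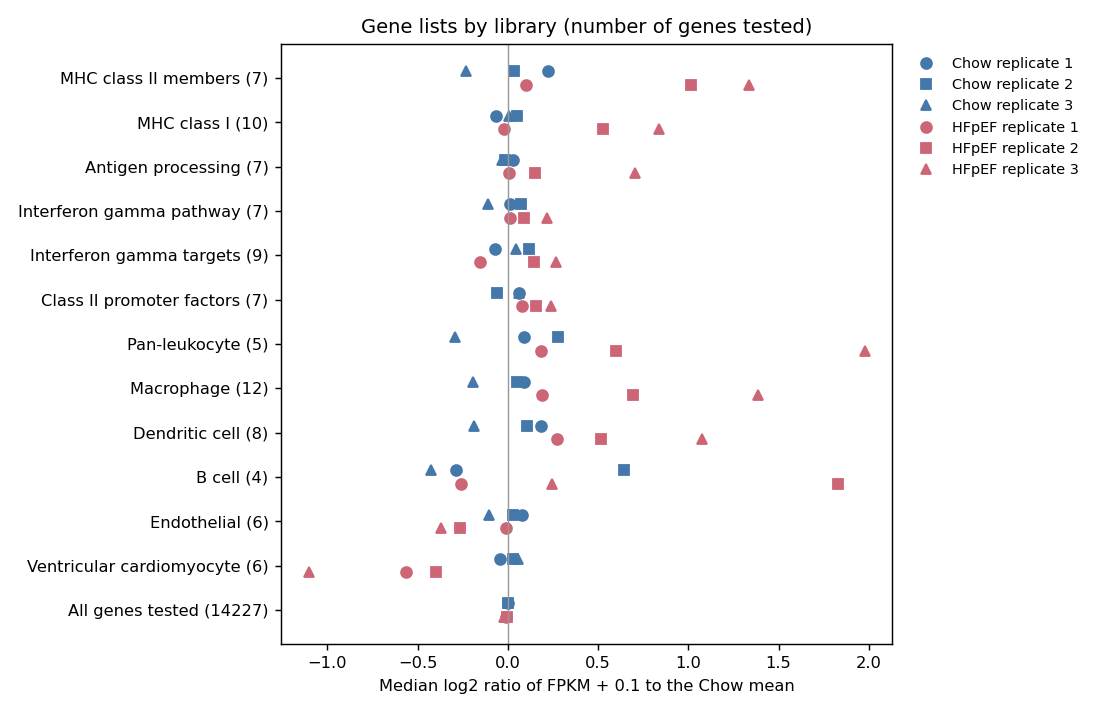
Median over the genes of each list of the log2 ratio of a library's FPKM + 0.1 to the mean of the Chow libraries. Points are single mice, and the number of genes tested is given in parentheses. The class II, class I, antigen processing, macrophage, dendritic cell and pan-leukocyte lists are highest in HFpEF replicates 2 and 3. So are the interferon gamma pathway, interferon gamma target and promoter factor lists, with smaller differences. The B cell list is highest in HFpEF replicate 2. The cardiomyocyte list is below the Chow libraries in all 3 HFpEF libraries on this scaling, a difference that was not seen after quantile normalization.

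Most markers of macrophages were high in the same HFpEF libraries as the class II genes. The summed level of the 7 class II genes was 202 to 272 FPKM in Chow and 257, 476 and 601 FPKM in HFpEF replicates 1 to 3. The summed level of 12 macrophage markers was 138 to 169 FPKM in Chow and 170, 238 and 441 FPKM in HFpEF. Of these 12, 5 were higher at an unadjusted p under 0.05 and 0 at an adjusted p under 0.05, with a median log2 fold change of 0.74. That count was 10, 3 and 6 without HFpEF replicates 1, 2 and 3, and it was 2, 2 and 1 without Chow replicates 1, 2 and 3. Without HFpEF replicate 3, 1 of the 12 also passed the adjusted threshold, as did 8.35% of all genes. In that fit 0 of the 7 class II genes passed either threshold. Of the 12, 10 had HFpEF replicates 2 and 3 above every Chow library, and 8 had the order of HFpEF libraries of the class II genes. Lyve1 and Timd4, markers of long-lived resident macrophages named after their values were seen, had another order, with replicate 3 the lowest HFpEF library. Lyve1 was at 8.71, 9.54 and 7.40 FPKM in HFpEF replicates 1 to 3 and at 4.90 to 5.95 FPKM in Chow. It was thus higher without overlap (log2 fold change 0.62, adjusted p = 0.107, limma). Timd4 was at 1.43, 1.85 and 0.286 FPKM in HFpEF, the last from 12 reads, and at 0.761 to 1.13 FPKM in Chow. C1qa, a complement subunit made by resident macrophages, was at 39.0 to 50.4 FPKM in Chow and at 47.3, 61.5 and 133 FPKM in HFpEF (log2 fold change 0.77, adjusted p = 0.267, limma). C1qb and C1qc had log2 fold changes of 0.78 and 0.74 with adjusted p of 0.301 and 0.175 in limma.

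Set against a macrophage gene, the class II chains did not differ between groups beyond the spread of the mice. H2-Ab1 was at 2.43, 2.34 and 2.18 times Csf1r, the macrophage growth factor receptor, in Chow and at 2.01, 3.03 and 2.19 times Csf1r in HFpEF (exact permutation p = 0.9, 0.982 adjusted). Against C1qa the exact permutation p was also 0.9, and Cd74 over Csf1r gave 0.7. Against Ptprc, the CD45 gene of all leukocytes, H2-Ab1 was at 40.2 to 49.2 times in Chow and at 30.7, 48.1 and 23.4 times in HFpEF (exact permutation p = 0.2, 0.8 adjusted). HFpEF replicate 2 therefore had the most class II per unit of Csf1r, and HFpEF replicate 3 the least per unit of Ptprc. Csf1r and Ptprc were named after their values were seen, and the part of macrophage content in the class II levels was not tested.

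The other class II-bearing cells gave low signals. Of 8 dendritic cell markers tested out of 11, 7 had a log2 fold change above 0, with a median of 0.61, and 1 was higher at an unadjusted p under 0.05 (3 without HFpEF replicate 1, 0 without HFpEF replicate 3 or Chow replicate 3). The summed level of the 11 genes was 8.81 to 10.2 FPKM in Chow and 10.7, 14.8 and 16.1 FPKM in HFpEF. Zbtb46, the conventional dendritic cell factor that endothelium also expresses and the one tested marker below 0, was at 2.73 to 3.78 FPKM in Chow and 2.62 to 3.19 FPKM in HFpEF. Clec10a, which macrophages share, was at 1.45 to 2.12 FPKM in Chow and at 0.996, 3.89 and 3.13 FPKM in HFpEF. The 10 B cell markers summed to 9.92 to 18.2 FPKM in Chow and to 10.5, 98.5 and 17.3 FPKM in HFpEF. Ighm made up 83.0 of the 98.5 FPKM in HFpEF replicate 2. The B cell sum was thus high in HFpEF replicate 2 alone, whereas the class II genes were also high in replicate 3. The part of B cells in the class II level of replicate 2 was not tested.

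Pan-leukocyte genes summed to 18.8 to 31.0 FPKM in Chow and to 27.2, 36.6 and 70.4 FPKM in HFpEF, and 2 of 5 were higher at an unadjusted p under 0.05 (4 without HFpEF replicate 1, 1 without Chow replicate 1, 0 without Chow replicate 3). Of 12 T and NK cell genes, 3 passed the filter, with 0 at an unadjusted p under 0.05. Cd4, the coreceptor that reads class II, was chosen for that role and had 8 to 14 reads in Chow and 7, 31 and 64 reads in HFpEF replicates 1 to 3. Monocyte markers passed the filter for 2 of 5 genes and neutrophil markers for 3 of 6, with 0 at an unadjusted p under 0.05 in either. The 2 monocyte genes had a median log2 fold change of 1.51 and the order of HFpEF libraries of the class II genes. The 5 summed to 1.14 to 3.14 FPKM in Chow and to 2.26, 4.37 and 15.6 FPKM in HFpEF. Without HFpEF replicate 1, 2 of 2 monocyte genes were higher at an unadjusted p under 0.05, and 0 without any other library. For neutrophil genes that count was 1 without HFpEF replicate 3. Ly6g, a defining neutrophil gene, was at 0 in all 6 libraries.

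Markers of other cell types differed between the groups as well, and not all in the same mice as class II. The 6 ventricular cardiomyocyte genes summed to 14442 to 15996 FPKM in Chow and to 10205, 10878 and 6981 FPKM in HFpEF, and 4 of 6 were lower at an unadjusted p under 0.05. That difference depended on the scaling, since quantile normalization gave 0 of 6 and a median log2 fold change of −0.00061 in place of −0.68. Without single libraries the count was 2 to 6, with 2 when any Chow library was left out. Fibroblast genes were higher at an unadjusted p under 0.05 for 4 of 6, with a sum of 177 to 212 FPKM in Chow and of 344, 359 and 3355 FPKM in HFpEF. That count was 5, 6 and 5 without HFpEF replicates 1, 2 and 3, and 3, 2 and 2 without Chow replicates 1, 2 and 3. Endothelial genes were lower for 2 of 6, Cdh5 and Kdr, and class II can also be induced in those cells. Without HFpEF replicate 3, 5 of 6 fibroblast, 5 of 6 cardiomyocyte and 2 of 6 endothelial genes passed the adjusted threshold, as did 1 of 12 macrophage markers. In that fit 8.35% of all genes did. In the adipocyte list 4 of 5 tested genes rose at an adjusted p under 0.05 in limma. That number was 1 without HFpEF replicate 1 or any 1 Chow library, 2 without HFpEF replicate 2 and 5 without HFpEF replicate 3, with all 5 higher at an unadjusted p under 0.05 in each of these fits. It was 0 with voom on recovered reads, 1 with a pseudocount of 1 or the replicate block and 2 with a pseudocount of 0.01, and the list summed to at most 0.0481 FPKM in any Chow library and to 88.4, 87.8 and 36.4 FPKM in HFpEF.

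HFpEF replicate 1, in which 5 of the 7 class II genes were within the Chow range, had the cardiomyocyte sum below Chow and the fibroblast and adipocyte sums above it, as in the other HFpEF mice. HFpEF replicate 3, with the highest class II levels, had the lowest adipocyte sum of the HFpEF group. The part of the changed cell mixture in the class II levels was not tested.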

How the data were processed

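RNA from left ventricular myocardium of 3 Chow and 3 HFpEF mice was analysed from the deposited FPKM. The authors aligned clean reads with HISAT2 and counted them with featureCounts. The labels name GRCm38 (mm10), and the annotation release, the strand setting and the FPKM formula are not given in the sources used here. Libraries were rescaled with median-of-ratios factors (0.999 to 1.00) and a pseudocount of 0.1. Genes that reached an FPKM of 0.5 in 3 or more libraries were fitted on the log2 scale with limma 3.58.1 in R 4.3.3 (trend and robust eBayes, Benjamini-Hochberg adjustment over all 14227 genes). A fold change on this scale understates the change of low genes. The authors' threshold for DEGs, an adjusted p under 0.05 and a log2 fold change of 2 or more in either direction, was counted as well. It was applied to the limma fits, whereas the authors used DESeq2, so the counts of DEGs given here are not theirs. Groups and replicate numbers came from the labels. For single values an exact permutation test (two-sided) was run in Python 3.11.15 (numpy 2.4.6, pandas 2.3.3, scipy 1.17.1; figures with matplotlib 3.10.9).

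Reads were recovered from the FPKM steps with GENCODE M21 exon lengths, at which 96.0% to 96.2% of values above 0 were whole at a relative tolerance of 1e-06. For the remaining genes the smallest length from 150 to 12000 bases that made all values whole was taken, which raised the share of genes with whole reads to 99.3%. Read limits cover counting error only. Summed reads do not equal the denominators that the steps imply, which means that the authors' FPKM were scaled once more between libraries. The fit was tested on simulated data.

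All 7 members were named. Of the other lists, the up to 3 most abundant genes, genes with an adjusted p under 0.05, genes at 0 and all interferon gamma pathway and other class II genes could be named, and others are marked as chosen later. The members and lists were chosen with earlier results of these data known. Alternatives were other scalings, a pseudocount of 1 or 0.01, a filter at 1 FPKM or none, eBayes without options, voom on recovered reads, a replicate block, an unadjusted p and leaving out each library. Proteomic and other assays were not analysed here. Values of 1 listed gene are not reported here.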

Additional observations from a re-analysis of the deposited data

How the results depend on the processing

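The number of class II genes with an adjusted p under 0.05 was 0 in limma under all 15 alternative fits, and it was 4 of 7 with an unadjusted p in place of the adjusted one. Over 104 alternative values of single class II genes the log2 fold change kept its direction and its side of the threshold, from 0.36 to 1.34, with adjusted p from 0.108 to 0.485. The median log2 fold change, 0.77 with all libraries, ran from 0.53 to 1.15 when libraries were left out in turn, and was 0.98 after quantile normalization. Ciita was not tested at an FPKM minimum of 1. Same-numbered Chow and HFpEF libraries did not deviate together (r of −0.041, −0.073 and −0.057), so the numbers were not taken as pairs. With the replicate block, 0 of 7 genes had an unadjusted p under 0.05, where 9.17% of all genes were higher at that threshold, and their adjusted p was 0.239 to 0.343. The number of all genes with an adjusted p under 0.05, 14 with all libraries, moved more. It was 3 and 5 with pseudocounts of 1 and 0.01, 33 with eBayes without options, 0 with voom on recovered reads (3332 at an unadjusted p), 2 with the replicate block, 2 without any 1 Chow library, and 3, 53 and 1188 without HFpEF replicates 1, 2 and 3. The cause was not tested. Genes past the DEG threshold in these fits numbered 8, against 2, 3, 19, 0, 2, 2, 3, 24 and 59 in the same order, and 5 at an FPKM minimum of 1. Depth limits H2-Oa, H2-Eb2 and Ifng, which had too few reads to be tested.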

Other observations

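The genes most like the class II genes over the 6 libraries were not immune genes by name. Among 12291 other genes with a mean of at least 1 FPKM, Pearson's r with the mean z-score of the 7 class II genes was highest for Paxbp1 (0.998), Msantd2 (0.995), Lpcat1 (0.991), Ints8 (0.990) and Pkn2 (0.989). Their log2 fold changes were 0.11 to 0.39, below the 0.52 to 1.06 of the class II genes, so they shared the order of the mice and not the size of the difference. None of the 5 passed an adjusted p of 0.05 in limma, with values of 0.210 to 0.536. With 6 libraries and this many genes compared, a high r is a description of these mice only.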
